A study of Mus musculus with 12 samples.

Results

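The Notch genes measured here were 10 of the 55401 genes in the count table: the receptors *Notch1*, *Notch2* and *Notch3*, the ligands *Dll1* and *Jag1*, the DNA-binding effector *Rbpj*, and the basic helix-loop-helix repressors *Hes1*, *Hes6*, *Hey1* and *Heyl*. They were chosen by name, each symbol matched 1 row of the table, and all 10 had enough reads to be tested. RNA-seq was carried out on *Pax7*-ZsGreen+ satellite cells, the stem cells of skeletal muscle, sorted from mouse hind limbs. *Cxcr4* WT mice were *Cxcr4* FL/FL; *Pax7*-ZsGreen without cre, and *Cxcr4* KO mice were *Cxcr4* FL/FL; *Pax7*-creERT2; *Pax7*-ZsGreen. *Pax7*-creERT2 deletes the floxed gene in cells that express *Pax7*, and only KO cells carried cre. All mice were adult and received tamoxifen at 80 mg/kg on 5 days. Freshly sorted cells are called quiescent (4 WT and 4 KO libraries) and cells cultured overnight are called activated (2 WT and 2 KO libraries). *Cxcr4*, a chemokine receptor, was lower in each KO library than in each WT library of its state, at 12.5 to 21.2 against 59.1 to 112 CPM (library-size-scaled counts) in quiescent cells and at 5.39 and 13.7 against 33.3 and 14.4 CPM in activated cells. Activated KO replicate 2 and WT replicate 2, at 13.7 and 14.4 CPM, were not clearly apart. The sources do not say whether each library came from a separate mouse, so p-values measure the spread between libraries.

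Notch receptors are cut after they bind a Delta or Jagged ligand on a neighbouring cell, and the freed intracellular domain enters the nucleus. There it joins Rbpj, which switches from repression to activation of genes such as the *Hes* and *Hey* repressors. In adult muscle, Notch signalling is known for holding satellite cells in quiescence, and *Hey1* and *Heyl* are among its best known targets in these cells. Hes6 differs from the others in that it antagonizes Hes1 and favours differentiation. *Notch3*, *Hey1* and *Heyl* are also expressed by pericytes and vascular smooth muscle.

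The 3 receptors had different fates in culture, as described below, and their promoters are shown so that they can be compared. Each run holds the 250 bases before a RefSeq transcription start (GRCm38.p6), 5′ to 3′ on the gene's own strand. Capitals mark CACNAG, or CTNGTG where it lies on the other strand, which is the N-box bound by Hes repressors.
Notch1, chr2:26503823-26504072, minus strand: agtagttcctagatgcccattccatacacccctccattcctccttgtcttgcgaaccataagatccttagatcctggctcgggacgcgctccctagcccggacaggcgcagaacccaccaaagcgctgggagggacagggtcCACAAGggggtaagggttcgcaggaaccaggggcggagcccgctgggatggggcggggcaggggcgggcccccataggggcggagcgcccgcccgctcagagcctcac
Notch2, chr3:98013288-98013537, plus strand: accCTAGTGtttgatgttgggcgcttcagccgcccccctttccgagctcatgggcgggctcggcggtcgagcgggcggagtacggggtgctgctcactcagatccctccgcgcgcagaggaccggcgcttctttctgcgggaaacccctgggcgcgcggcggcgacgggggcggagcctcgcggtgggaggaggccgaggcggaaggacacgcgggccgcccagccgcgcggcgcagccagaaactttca
Notch3, chr17:32166891-32167140, minus strand: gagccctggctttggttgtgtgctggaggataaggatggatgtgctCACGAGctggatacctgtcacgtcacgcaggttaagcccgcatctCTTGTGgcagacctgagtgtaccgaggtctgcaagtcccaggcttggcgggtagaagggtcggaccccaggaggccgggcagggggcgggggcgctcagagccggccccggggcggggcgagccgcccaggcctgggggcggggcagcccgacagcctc
CACNAG occurred 1 time in the *Notch1* window, 1 time in the *Notch2* window and 2 times in the *Notch3* window, and 36.7% of all 32851 RefSeq promoter windows of this length hold it on either strand. TGGGAA, the core that Rbpj binds, was in none of these 3 windows on either strand, while 21.6% of all windows hold it. It was found 2 times in the first window of *Rbpj* itself and 1 time in the second. These windows overlap, and the site in the second lies in the shared part, so it is also counted in the first. GC made up 66%, 72% and 68.8% of the *Notch1*, *Notch2* and *Notch3* windows, against a median of 52.4% over all windows, and they held 16, 34 and 17 CpG dinucleotides against a median of 6. In all, 7 of the 10 genes had a promoter entry, and *Hes1*, *Hey1* and *Heyl* did not.

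Positions are given on GRCm38. *Notch1* (ENSMUSG00000026923) spans chromosome 2 from 26457903 to 26516663, *Notch2* (ENSMUSG00000027878) chromosome 3 from 98013527 to 98150361, and *Notch3* (ENSMUSG00000038146) chromosome 17 from 32120820 to 32166852. *Dll1* (ENSMUSG00000014773) spans chromosome 17 from 15367354 to 15376872, *Jag1* (ENSMUSG00000027276) chromosome 2 from 137081456 to 137116644, and *Rbpj* (ENSMUSG00000039191) chromosome 5 from 53466152 to 53657362. *Hes1* (ENSMUSG00000022528) spans chromosome 16 from 30064384 to 30067796, *Hes6* (ENSMUSG00000067071) chromosome 1 from 91411483 to 91414038, *Hey1* (ENSMUSG00000040289) chromosome 3 from 8663359 to 8667256, and *Heyl* (ENSMUSG00000032744) chromosome 4 from 123233556 to 123249875. Exons of *Notch1*, *Notch2*, *Notch3* and *Dll1* overlap exons of other annotated genes. *Gm17276*, antisense to *Notch3* over 488 exonic bases, had 1 to 97 counts per library, and *Gm42820*, on the strand of *Notch2* over 541 bases, had 2 to 36. The 2 antisense partners of *Notch1* had at most 53 counts in a library. *A930024N18Rik* lies on the strand opposite *Dll1* and shares 867 of its 4219 exonic bases. Its counts were not examined here.

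Depth was 12775593 to 23717013 counts in the quiescent libraries and 3172164 to 5427280 in the activated libraries, so that values of activated cells carry more counting error. A single ribosomal RNA gene took 11.5% to 40.3% of the counts of activated libraries and under 1% of those of quiescent libraries. The summed level of 10 satellite cell markers went from 3902 to 5903 CPM in quiescent libraries to 1172 to 1714 CPM in activated libraries, and that of 10 muscle fibre genes from 340.1 to 1117 CPM to 8977 to 20287 CPM. Immediate early genes summed to 25117 to 40836 CPM in quiescent and 1469 to 3295 CPM in activated libraries. *Xist* was at 451 to 817 CPM in activated and at most 7.17 CPM in quiescent libraries, and the Y-linked *Ddx3y* was at 289 to 570.4 CPM in quiescent and at most 2.28 CPM in activated libraries. The activated and quiescent libraries therefore came from mice of different sex, and state and sex cannot be told apart.

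In quiescent cells *Notch3* stood above the other Notch genes. Levels are comparable between genes only per length, and are given as RPKM, the TMM-scaled CPM per kilobase of exon. The length is that of all annotated exons of a gene joined, such as 14232 bases for *Notch1*, 12750 for *Rbpj* and 8089 for *Notch3*. Orders between genes, and shares built from them, depend on this choice. *Notch3* was at 110.6 ± 7.73 RPKM (SD, n = 4) in quiescent WT libraries, and each of these libraries lay above every library's value for *Hes1*, the next gene, at 45.7 ± 8.18 RPKM. *Hes1*, *Heyl* at 44.7 ± 5.52 RPKM and *Hey1* at 41.8 ± 8.32 RPKM overlapped, so their order is not resolved. *Notch1* followed at 26.6 ± 4.17 RPKM, below all libraries' values for *Hey1*. *Jag1* at 19.97 ± 2.97, *Notch2* at 16.7 ± 2.69, *Dll1* at 12.7 ± 2.47, *Rbpj* at 9.75 ± 1.21 and *Hes6* at 7.77 ± 1.51 RPKM came after it, and each overlapped its neighbour in the order. In quiescent KO libraries the order was the same except that *Hey1* at 30.5 ± 13.1 RPKM and *Notch2* at 17.6 ± 3.42 RPKM each moved ahead of the gene before them. There *Notch3*, at 93.9 ± 34.4 RPKM, overlapped *Hes1* at 40.9 ± 12.9 RPKM (SD, n = 4).

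**Figure D1:**
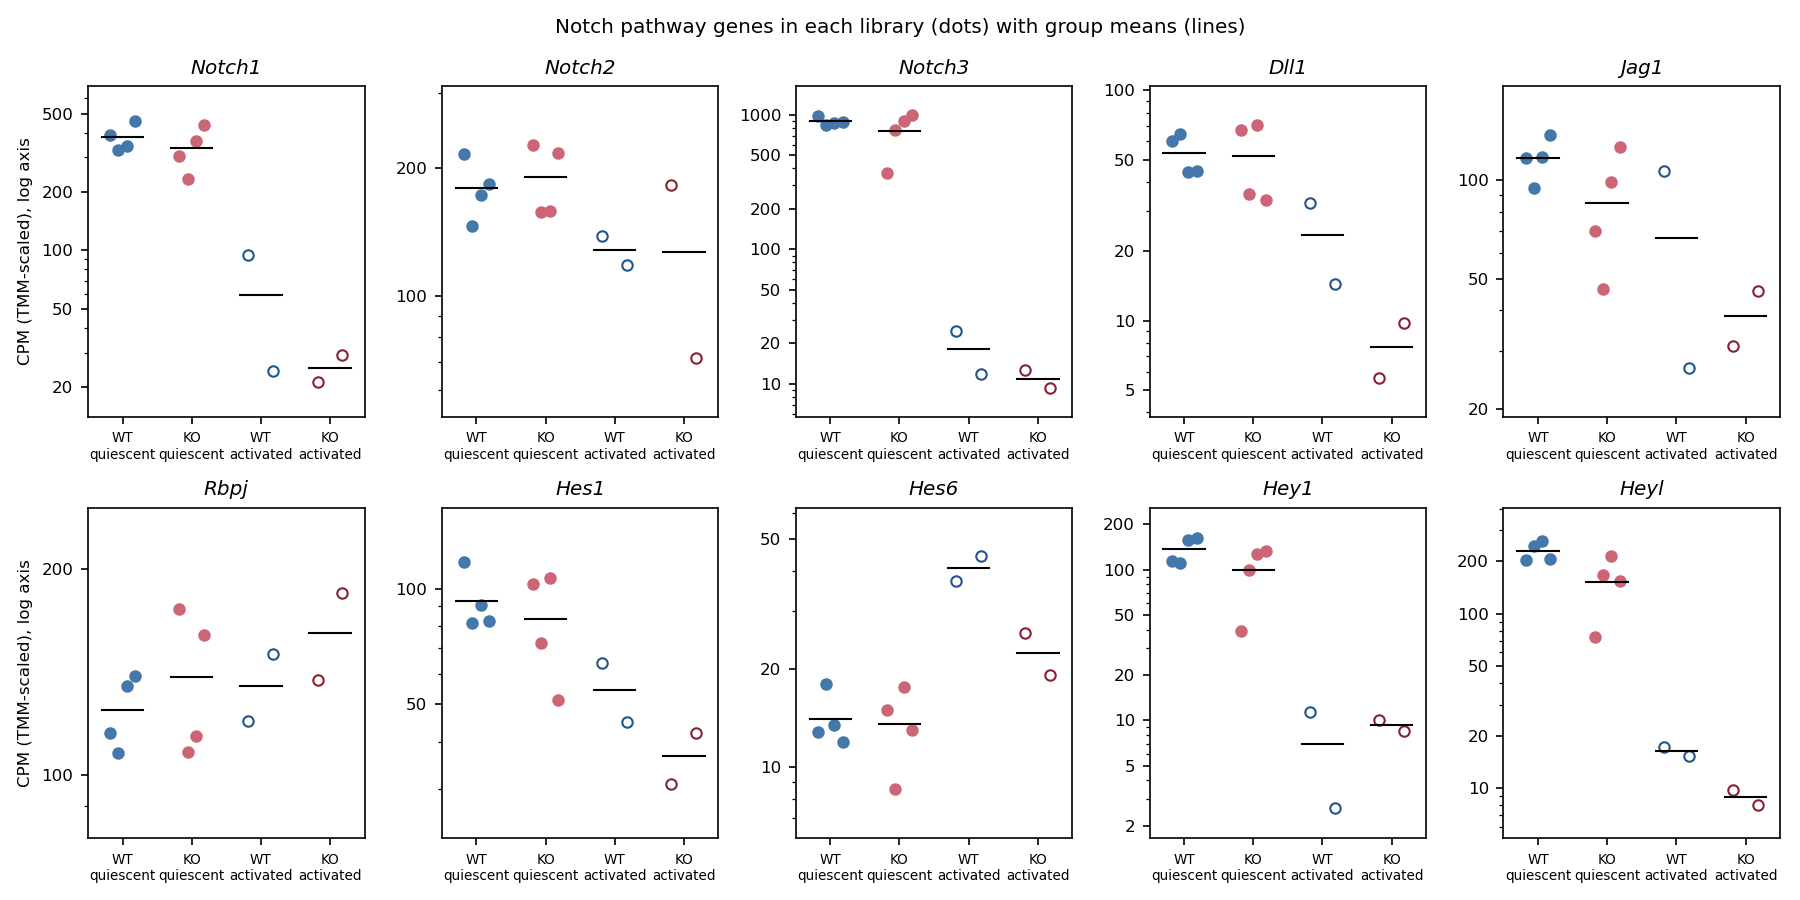
Level of each of the 10 Notch genes in each library, in TMM-scaled CPM on a log axis, with 1 panel per gene; filled dots are quiescent and open dots activated libraries, and lines are group means. *Notch3* lies at 367 to 997 CPM in all 8 quiescent libraries and at 9.35 to 24.7 CPM in the 4 activated libraries, while *Rbpj* overlaps between all groups.

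The question of the first comparison was how the Notch genes changed when satellite cells left quiescence in overnight culture. In WT cells *Notch1*, *Notch3*, *Dll1*, *Hey1* and *Heyl* fell and *Hes6* rose. In KO cells the same 5 genes fell together with *Jag1* and *Hes1*. *Notch2* and *Rbpj* passed the threshold in neither genotype. A gene was called at an adjusted p under 0.05 in edgeR's quasi-likelihood test with Benjamini-Hochberg adjustment over all 25771 genes tested. In WT cells 6 of the 10 genes were called, and 29.8% of all genes tested were. The 5 called lower stand beside 18.3% of all genes called lower, and the 1 called higher beside 11.5%. In KO cells 7 of 10 were called, all lower, where 33.7% of all genes were called and 20.4% were called lower. The median log2 fold change was -0.97 for the 10 genes and -0.92 for all genes tested in WT cells, and -1.96 and -0.96 in KO cells. Among the 12862 genes with a mean log2 CPM over 1 the median was -0.16 in WT and -0.13 in KO cells, and 25.7% and 27.8% of them were called lower. Levels of 8 of the 10 genes did not overlap between the states in WT cells, and of 8 in KO cells, where 56% and 54.4% of all genes tested did not. In bulk RNA, fewer cells of a type cannot be told apart from less RNA per cell.

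**Figure D2:**
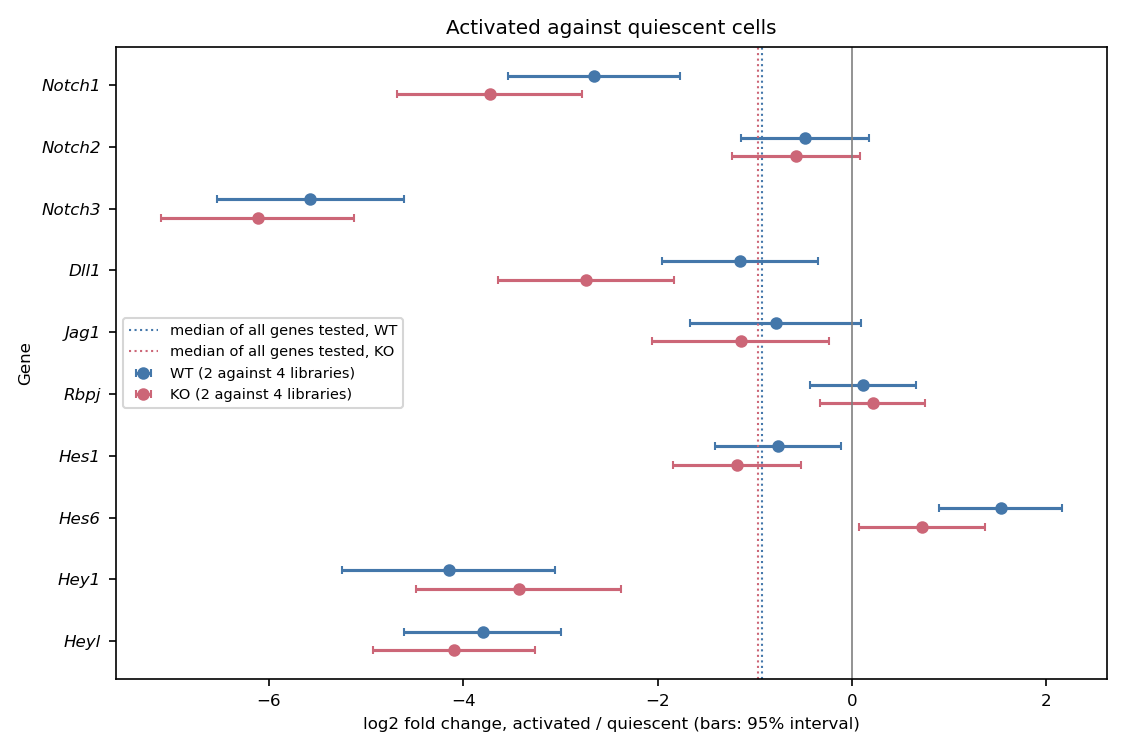
Log2 fold change of each Notch gene in activated against quiescent cells, in WT (blue) and KO (red) mice, with bars for the 95% interval; dotted lines are the medians of all genes tested, -0.92 in WT and -0.96 in KO. *Notch3* lies farthest to the left, at -5.57 and -6.12, and the bars of *Notch2* and *Rbpj* reach across 0.

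*Notch3*, the most abundant receptor of quiescent cells, had 982, 834, 873 and 890.0 CPM in the quiescent WT libraries and 24.7 and 11.8 CPM in the activated WT libraries. In KO mice it had 367, 771, 904 and 997 CPM in quiescent and 12.6 and 9.35 CPM in activated libraries. All activated libraries lay far below all quiescent libraries. *Notch3* was 47.6-fold lower in activated WT cells (log2 fold change -5.57, SE 0.46, adjusted p = 5.91e-08) and 69.3-fold lower in activated KO cells (log2 fold change -6.12, SE 0.48, adjusted p = 2.78e-08). Over all alternatives the log2 fold change stayed between -6.16 and -5.12 in WT and between -6.35 and -5.91 in KO cells.

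*Notch1*, the founding receptor of the family, had 391, 325, 342 and 458 CPM in quiescent WT and 303, 232, 361 and 436 CPM in quiescent KO libraries. After culture it had 94.3 and 24.1 CPM in WT and 21.3 and 29.0 CPM in KO libraries. The WT libraries of activated cells differed from each other by more than the KO libraries did, but all 4 lay below all quiescent libraries. The fall was 6.28-fold in WT (log2 fold change -2.65, SE 0.42, adjusted p = 8.10e-05) and 13.2-fold in KO cells (log2 fold change -3.73, SE 0.46, adjusted p = 3.97e-06). Without WT activated replicate 1 the WT log2 fold change was -3.90, and without replicate 2 it was -1.95, past the threshold in both cases.

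*Notch2*, the receptor that was called in neither genotype, had 146 to 216 CPM in quiescent WT and 158 to 226 CPM in quiescent KO libraries. It had 139 and 118 CPM in activated WT and 183 and 71.6 CPM in activated KO libraries. The activated WT libraries lay just below the quiescent ones, and the KO libraries overlapped. The log2 fold change was -0.48 (95% interval -1.14 to 0.17) in WT and -0.58 (-1.24 to 0.08) in KO cells, with adjusted p of 0.238 and 0.158. These intervals hold no fall as large as that of *Notch1* or *Notch3*. Without KO activated replicate 1, the KO value was -1.41 and was called (adjusted p = 0.0113).

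Because the receptors changed unequally, the composition of receptor mRNA differed between states. Shares within a library do not depend on how libraries are scaled, and this summary was chosen after the values were seen, so it is given without a test. *Notch4*, a receptor known mainly from endothelium and no member of the 10 genes, was included so that all 4 receptors were counted. *Notch3* made up 70.1% ± 1.79 (SD, n = 4) of the summed per-length level of the 4 receptors in quiescent WT cells and 66.0% ± 11.6 (SD, n = 4) in quiescent KO cells. It made up 10.6% and 9.48% in the activated WT libraries and 7.35% and 6.87% in the activated KO libraries. *Notch2* made up 9.32% to 22.6% over the 8 quiescent libraries and 39.5% to 80.1% over the 4 activated libraries, so its shares did not overlap between the states. *Notch1* overlapped, at 12.6% to 22.9% in quiescent and 7.08% to 23.0% in activated libraries. *Notch4* overlapped too, at 0.957% to 5.83% in quiescent libraries, 21.8% and 8.45% in activated WT libraries and 5.42% and 41.5% in activated KO libraries. The receptor with the largest share was *Notch3* in all 8 quiescent libraries and *Notch2* in 3 of the 4 activated libraries. In the remaining one, KO activated replicate 2, *Notch4* was slightly above *Notch2*, at 41.5% against 39.5%. The 10 endothelial markers summed to 854 and 145 CPM in the activated WT libraries and to 154 and 466 CPM in the activated KO libraries, in each genotype with the higher sum in the library with more *Notch4*, and their part in these shares was not tested.

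**Figure D3:**
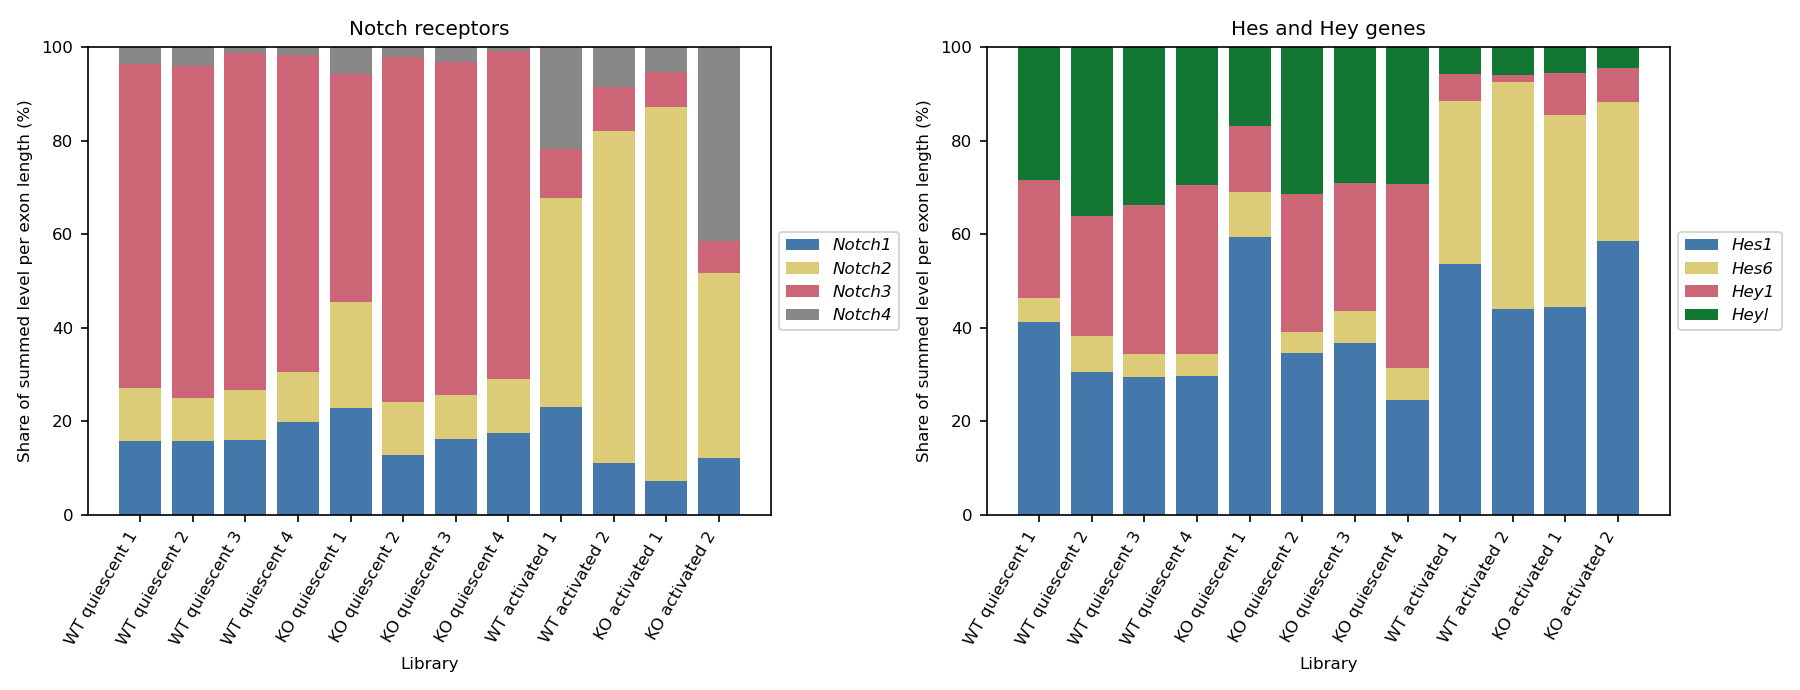
Share of each gene in the summed level per exon length of the 4 Notch receptors (left) and of the 4 *Hes* and *Hey* genes (right), in percent, with 1 stacked bar per library. *Notch3* takes 48.7% to 73.8% of the receptor level in quiescent libraries, *Notch2* takes 39.5% to 80.1% and *Notch4* 5.42% to 41.5% in activated libraries, and *Hes6* takes 4.59% to 9.68% of the *Hes* and *Hey* level in quiescent and 29.9% to 48.5% in activated libraries.

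Of the ligands, *Dll1* (Delta-like 1) had 60.5, 64.4, 44.4 and 44.9 CPM in quiescent WT and 67.4, 35.5, 70.8 and 33.3 CPM in quiescent KO libraries. It had 32.5 and 14.4 CPM in activated WT and 5.65 and 9.81 CPM in activated KO libraries. All activated libraries lay below all quiescent ones, the highest of them, WT replicate 1, by little. *Dll1* fell 2.22-fold in WT (log2 fold change -1.15, SE 0.38, adjusted p = 0.0292) and 6.66-fold in KO cells (log2 fold change -2.74, SE 0.43, adjusted p = 6.85e-05). The WT call was lost when WT activated replicate 2 was left out (log2 fold change -0.66, adjusted p = 0.359), and also without WT quiescent replicate 1 (-1.08, adjusted p = 0.0593) or replicate 2 (-1.02, adjusted p = 0.0680).

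*Jag1* (Jagged 1) had a higher mean level per length than *Dll1* in every group, but not in every library. Of their summed level, *Dll1* made up 57.1%, 51.4% and 49.9% in quiescent KO replicates 1, 2 and 3, and less in all other libraries. *Jag1* had 116, 94.6, 118 and 137 CPM in quiescent WT and 69.9, 46.3, 98.4 and 126 CPM in quiescent KO libraries. Activated WT libraries had 106 and 26.7 CPM and activated KO libraries 31.1 and 45.9 CPM. The activated WT replicates fell on either side of most other values, so that the WT groups overlapped, while the KO groups were separated by less than 1 CPM. The log2 fold change was -0.78 (SE 0.42, adjusted p = 0.160) in WT and -1.15 (SE 0.43, adjusted p = 0.0479) in KO cells. Without WT activated replicate 1 the WT value was -2.05 and was called (adjusted p = 0.00348), and without replicate 2 it was -0.07. The KO value lies close to the threshold and passed it in 9 of 17 alternatives, with adjusted p from 0.00217 to 0.310.

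*Rbpj*, through which all 4 receptors act, had 115, 108, 135 and 139.6 CPM in quiescent WT and 119.7 and 150.2 CPM in activated WT libraries. In KO mice it had 175, 108, 114 and 160.3 CPM in quiescent and 138 and 184 CPM in activated libraries. The groups overlapped in both genotypes. The log2 fold change was 0.12 (95% interval -0.43 to 0.66) in WT and 0.21 (-0.33 to 0.75) in KO cells, with adjusted p of 0.741 and 0.521, and it was called in none of 17 alternatives in each genotype.

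Among the repressors, *Hey1* and *Heyl* fell most. *Heyl* had 204, 242, 262 and 207 CPM in quiescent WT and 73.8, 166, 213 and 154 CPM in quiescent KO libraries, and 17.3 and 15.3 CPM in activated WT and 9.76 and 7.98 CPM in activated KO libraries. The states did not overlap in either genotype. The fall was 13.9-fold in WT (log2 fold change -3.80, SE 0.39, adjusted p = 6.13e-07) and 17.1-fold in KO cells (log2 fold change -4.10, SE 0.40, adjusted p = 3.18e-07). *Hey1* had 115, 111, 158 and 162 CPM in quiescent WT and 39.1, 98.9, 127 and 132 CPM in quiescent KO libraries, and 11.3 and 2.63 CPM in activated WT and 10.0 and 8.44 CPM in activated KO libraries. The lowest of these rests on 6 counts. *Hey1* fell 17.8-fold in WT (log2 fold change -4.15, SE 0.53, adjusted p = 6.81e-06) and 10.8-fold in KO cells (log2 fold change -3.43, SE 0.50, adjusted p = 3.10e-05).

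*Hes1*, the classical Notch target, changed less. It had 117, 81.7, 91.0 and 82.6 CPM in quiescent WT and 103, 72.4, 107 and 51.2 CPM in quiescent KO libraries. It had 64.2 and 45.1 CPM in activated WT and 31.1 and 42.2 CPM in activated KO libraries, below the quiescent libraries of the same genotype in each case. The log2 fold change was -0.76 (SE 0.31, adjusted p = 0.0687) in WT and -1.18 (SE 0.32, adjusted p = 0.00710) in KO cells. *Hes1* was called in 3 of 17 alternatives in WT and in 16 of 17 in KO cells, the exception being the fit without KO activated replicate 1 (adjusted p = 0.124).

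*Hes6* was the only one of the 10 genes called higher. It had 12.8, 18.0, 13.5 and 11.9 CPM in quiescent WT and 14.9, 8.54, 17.7 and 13.0 CPM in quiescent KO libraries, and 37.1 and 44.2 CPM in activated WT and 25.7 and 19.2 CPM in activated KO libraries. Every activated library lay above every quiescent one. The rise was 2.89-fold in WT (log2 fold change 1.53, SE 0.30, adjusted p = 0.000667). In KO cells the log2 fold change was 0.72 (SE 0.31, adjusted p = 0.0773), called in 2 of 17 alternatives. *Hes1* and *Hes6* were the most abundant of the 10 genes per length in activated WT cells, at 26.8 ± 6.63 and 22.5 ± 2.79 RPKM (SD, n = 2), and overlapped. *Notch3* at 2.26 ± 1.12 and *Hey1* at 2.13 ± 1.87 RPKM were the lowest, and also overlapped. In activated KO cells *Hes1* again led, at 17.99 ± 3.86 RPKM, ahead of *Rbpj* at 12.6 ± 2.59 RPKM without overlap, and *Notch3* was the lowest at 1.36 ± 0.283 RPKM (SD, n = 2).

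Markers of pericytes and smooth muscle were read beside *Notch3*, *Hey1* and *Heyl*, since those cells share these genes. The 10 markers summed to 1880 to 2980.5 CPM in quiescent and 961 to 1394 CPM in activated libraries. Among them, *Des* is expressed by muscle cells too. The other 9 markers summed to 499.8 to 1874 CPM in quiescent and 211 to 403 CPM in activated libraries, with *Rgs5* at 171 to 1066 and 136 to 223 CPM. Of the 10 markers, 5 were called lower in activated WT and 7 in activated KO cells, and none higher. Of all genes tested 18.3% were called lower in WT and 20.4% in KO cells. Among the 12862 genes with a mean log2 CPM over 1, 25.7% and 27.8% were called lower and 21.1% and 23.8% higher. The counts for the other cell types below stand beside the same shares. *Tagln* was at 0 in 1 library of each activated group. The 9 markers and *Notch3* had 1619 and 982, 1866 and 834, 653.6 and 873, and 849 and 890.0 CPM in quiescent WT replicates 1 to 4. In quiescent KO replicates 1 to 4 they had 1325 and 367, 765 and 771, 1874 and 904, and 499.8 and 997 CPM. The relation of the markers to *Notch3* was not tested. Endothelial markers summed to 353 to 1743 CPM in quiescent and 145 to 854 CPM in activated libraries, with 4 of 10 called lower in WT and 3 in KO cells. Fibroadipogenic progenitor markers summed to 827 to 3845 CPM in quiescent and 359.9 to 818 CPM in activated libraries, with 4 of 10 called lower in each genotype and 1 higher in KO cells. Blood cell markers summed to 87.3 to 399.7 CPM in quiescent and 36.9 to 69.1 CPM in activated libraries, with 5 called lower in WT and 7 in KO cells, and Schwann cell markers to 670.3 to 979 CPM and 118 to 317 CPM, with 8 of 9 tested called lower in WT and 6 in KO cells. Of the satellite cell markers 9 of 10 in WT and 10 of 10 in KO cells were called lower, and all 10 muscle fibre genes were called higher in both. The part of any of these cell types in the Notch results was not tested.

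The rest of the pathway was followed in 8 lists with 74 genes, of which 70 were tested. *Aes* was not analysed here, and *Hes2*, *Hes3* and *Helt* had too few reads. In WT cells 4 of the 70 genes rose and 32 fell, and in KO cells 6 rose and 30 fell, where 18.3% of all genes tested fell in WT and 20.4% in KO cells. Of all genes tested 11.5% rose in WT cells. Among the 12862 genes with a mean log2 CPM over 1, 21.1% rose in WT and 23.8% in KO cells, and 25.7% and 27.8% fell. The median log2 fold changes of the 70 genes were -0.91 in WT and -0.998 in KO cells. Those of all genes tested were -0.92 and -0.96, and those of the 12862 genes were -0.16 and -0.13. Without WT activated replicate 2 the number called in WT cells was 20.

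Of 7 other receptors and ligands, 2 fell in WT and 1 in KO cells, where 18.3% and 20.4% of all genes tested fell. *Dll3*, an atypical ligand, had 86 counts over the 4 quiescent WT libraries (1.12 CPM) and none in the activated WT libraries, which makes it at least 3.14-fold lower against a floor of 3 counts over the group. Of 12 genes of ligand and receptor processing, 2 rose and 3 fell in WT cells, and 2 rose and 2 fell in KO cells. *Poglut1*, an O-glucosyltransferase that modifies Notch, rose from 15.3 ± 5.30 CPM (SD, n = 4) to 30.2 ± 4.37 CPM (SD, n = 2) in WT cells (log2 fold change 0.99, adjusted p = 0.0173). *Rfng*, a Fringe glycosyltransferase, fell from 32.0 ± 3.47 to 15.3 ± 0.634 CPM (log2 fold change -1.07, adjusted p = 0.00457).

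Of 7 gamma-secretase genes, whose products make the final cut in the receptor, 2 fell in WT, and 1 rose and 2 fell in KO cells. This and the next counts stand beside 18.3% of all genes tested that fell in WT and 20.4% in KO cells. *Aph1b*, one of its subunits, fell from 12.4 ± 3.37 to 1.99 ± 0.277 CPM in WT cells (log2 fold change -2.66, adjusted p = 0.000281). Of 8 nuclear coactivators, 4 fell in WT, and 1 rose and 3 fell in KO cells. *Maml3*, a Mastermind protein that bridges Notch and Rbpj to the transcription machinery, fell from 22.7 ± 4.57 to 5.14 ± 2.64 CPM (log2 fold change -2.24, adjusted p = 0.000861). Of 11 corepressors tested, 5 fell in each genotype, among them *Tle4*, a Groucho corepressor, from 78.1 ± 9.66 to 14.1 ± 5.04 CPM in WT cells (log2 fold change -2.43, adjusted p = 1.01e-05).

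Of 11 negative regulators, 1 rose and 6 fell in each genotype, where 18.3% of all genes tested fell in WT and 20.4% in KO cells. *Fbxw7*, part of the ubiquitin ligase that degrades the Notch intracellular domain, rose from 15.6 ± 1.72 to 34.9 ± 2.67 CPM in WT cells (log2 fold change 1.16, adjusted p = 0.00128). *Dtx3*, a Deltex protein, fell from 180.5 ± 12.2 to 33.9 ± 17.0 CPM (log2 fold change -2.39, adjusted p = 1.67e-05). Among 5 other *Hes* and *Hey* family genes tested, 1 rose and 1 fell in WT cells, and 1 rose and 2 fell in KO cells. In WT cells these were the related repressors *Bhlhe41*, which rose from 13.9 ± 3.65 to 55.1 ± 4.82 CPM (log2 fold change 1.99, adjusted p = 3.88e-05), and *Bhlhe40*, which fell from 368 ± 34.8 to 101.6 ± 50.8 CPM (log2 fold change -1.85, adjusted p = 0.000148). These relatives thus moved in opposite directions.

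A list of 9 genes described as Notch and Rbpj targets in satellite cells held *Pax7*, *Calcr*, *Megf10*, *Chrdl2* and the collagen genes *Col5a1*, *Col5a2*, *Col5a3*, *Col6a1* and *Col6a2*. All 9 fell in both genotypes, with a median log2 fold change of -2.48 in WT and -2.79 in KO cells. Of all genes tested 18.3% fell in WT and 20.4% in KO cells, with medians of -0.92 and -0.96. Among the 12862 genes with a mean log2 CPM over 1, 25.7% and 27.8% fell, with medians of -0.16 and -0.13. *Chrdl2*, a secreted BMP antagonist, fell from 183 ± 58.4 CPM (SD, n = 4) to 2.21 ± 0.587 CPM (SD, n = 2) in WT cells (log2 fold change -6.45, adjusted p = 2.48e-07). The list was chosen with earlier results of these data known, and *Pax7* and *Calcr* are also among the satellite cell markers above. It includes markers of quiescent satellite cells and collagens that fibroblasts also make, whose own markers are given above.

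**Figure D4:**
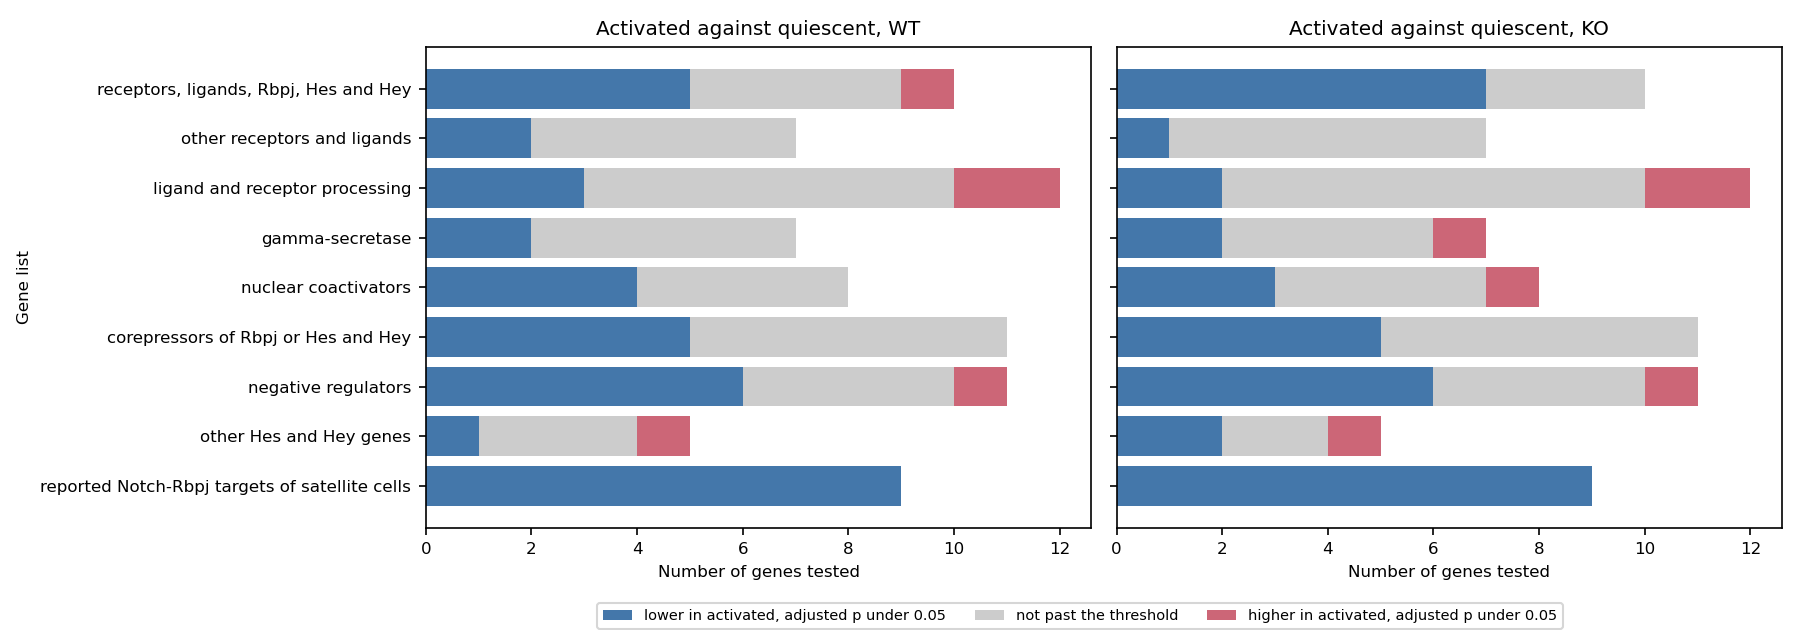
Number of genes in the Notch list and in each of the 8 pathway lists that were lower (blue), higher (red) or not past the threshold (grey) in activated against quiescent cells, in WT (left) and KO (right) mice, at an adjusted p under 0.05. All 9 genes of the reported target list are blue in both panels.

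The next comparison asked whether loss of *Cxcr4* changed the Notch genes. In quiescent cells none of the 10 was called between KO and WT, where 0.0155% of all genes tested were called, and all 10 overlapped between the genotypes, where 1.7% of all genes did not. At an unadjusted p under 0.05 stood 1 of the 10, *Heyl*, where 1.74% of all genes did. DESeq2 on all libraries called none either. *Heyl* was 1.51-fold lower in KO cells (log2 fold change -0.59, SE 0.25, 95% interval -1.12 to -0.07, unadjusted p = 0.0279 and adjusted p = 1 in edgeR). The largest of the other differences were those of *Hey1* at -0.46 (95% interval -1.14 to 0.23) and *Jag1* at -0.45 (-1.14 to 0.24). *Notch2* at 0.08 (-0.44 to 0.60), *Rbpj* at 0.16 (-0.28 to 0.60), *Hes6* at -0.05 (-0.58 to 0.48) and *Dll1* at -0.05 (-0.65 to 0.55) had intervals that hold changes of at most 0.65 on the log2 scale in either direction. *Notch1* was at -0.19 (-0.81 to 0.44), *Notch3* at -0.24 (-0.80 to 0.33) and *Hes1* at -0.16 (-0.66 to 0.34).

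A single library, KO replicate 1, had the lowest quiescent value of *Notch3*, *Hey1* and *Heyl*, at 367, 39.1 and 73.8 CPM, against 771, 98.9 and 154 CPM in the next lowest library. Without it the log2 fold changes of KO against WT were -0.01 for *Notch3*, -0.19 for *Hey1* and -0.37 for *Heyl*. The same library had the lowest summed satellite cell markers of the quiescent libraries, 3902 CPM, the lowest fibroadipogenic progenitor markers, 827 CPM, and the highest endothelial markers, 1743 CPM. Their part in the low values was not tested. *Notch2* and *Rbpj* were not low in this library, at 226 and 175 CPM, the highest values of both genes among the quiescent libraries.

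In activated cells none of the 10 genes was called between KO and WT, where 0.0504% of all genes tested were. At an unadjusted p under 0.05 stood 4 of 10, all lower in KO, where 8.37% of all genes did and 4.11% were lower. These were *Dll1* (log2 fold change -1.63, SE 0.46, unadjusted p = 0.00216, adjusted p = 0.244 in edgeR), *Notch1* (-1.26, SE 0.45, adjusted p = 0.407 in edgeR), *Heyl* (-0.89, SE 0.41, adjusted p = 0.585 in edgeR) and *Hes6* (-0.85, SE 0.37, adjusted p = 0.541 in edgeR). DESeq2 on all libraries called none, with an adjusted p of 0.0529 for *Dll1*. *Dll1*, *Hes1*, *Hes6* and *Heyl* did not overlap between the genotypes, all lower in KO, where 24.7% of all genes tested did not overlap and 9.5% were lower. The difference in *Notch1* came with WT activated replicate 1, whose 94.3 CPM stood above 24.1 CPM in the other WT library and 21.3 and 29.0 CPM in KO. Without that library the log2 fold change was -0.04 for *Notch1*, -0.996 for *Dll1* and 0.43 for *Jag1*. Without WT activated replicate 2 instead, *Notch1* (-1.98, adjusted p = 0.0102) and *Dll1* (-2.15, adjusted p = 0.0244) were called in edgeR. WT activated replicate 1 also had more endothelial markers than replicate 2, 854 against 145 CPM, and fewer muscle fibre transcripts, 8977 against 19447 CPM, and their part in these values was not tested.

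**Figure D5:**
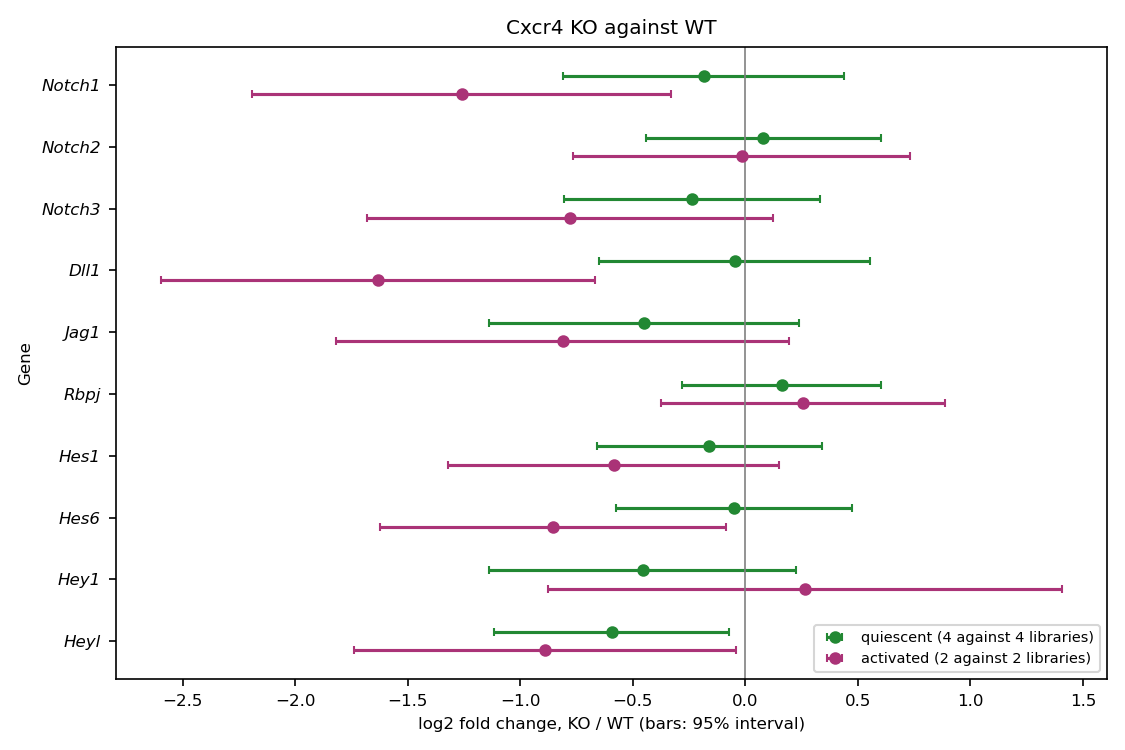
Log2 fold change of each Notch gene in KO against WT cells, in quiescent (green, 4 against 4 libraries) and activated (purple, 2 against 2) cells, with bars for the 95% interval. No gene passes an adjusted p of 0.05, the bars of activated cells are wider, and *Dll1* in activated cells lies farthest from 0, at -1.63.

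Whether the difference between KO and WT itself changed with activation was tested as an interaction, and 0 of the 10 genes and 0% of all genes tested were called. At an unadjusted p under 0.05 stood 1 of the 10, *Dll1* (difference of log2 fold changes -1.58, SE 0.54, unadjusted p = 0.00862, adjusted p = 0.581 in edgeR), where 6.59% of all genes did. DESeq2 on all libraries called none either. The larger fall of *Dll1* in KO than in WT cells was thus not resolved over all genes, nor was the difference in *Notch1* (-1.07, 95% interval -2.19 to 0.04) or *Hes6* (-0.80, -1.73 to 0.12). In the pathway lists none of the 70 genes tested was called between KO and WT in either state, with 1 at an unadjusted p under 0.05 in quiescent and 7 in activated cells, where 1.74% and 8.37% of all genes tested were.

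Across the 8 quiescent libraries, the genes whose log2 CPM was most like that of *Notch3* among 11941 protein-coding genes were *Thap2*, *Robo1* and *Edn3*, with Pearson's r of 0.980, 0.979 and 0.978. Their rank correlations were lower, with rho of 0.738, 0.548 and 0.690, and the single low library, KO replicate 1, sets the range of *Notch3*. *Jag1* was most like *Tada1*, *Tbc1d16* and *Dclk1* (r of 0.981, 0.975 and 0.972, rho of 1, 0.976 and 0.929), and *Hes1* most like *Rtel1*, *Trappc11* and *Wscd1* (r of 0.974, 0.970 and 0.969, rho of 0.976, 0.976 and 0.952). These are descriptions over 8 libraries of 2 genotypes that differ in depth, chosen as the highest of many values.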

How the data were processed

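The authors trimmed reads with Trim Galore 0.6.0, mapped them to GRCm38.p6 with STAR 2.7.2a and used Rsubread to count them on GENCODE genes. The deposited counts are raw whole numbers per gene. The sources used here do not state how reads with several hits or strand were treated. Deposited FPKM, with 1 value per group, were not used. Groups came from the sample labels.

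Counts were filtered with filterByExpr, TMM-scaled and fitted with edgeR 4.0.16 in R 4.3.3, with 1 mean per group, and contrasts were tested by quasi-likelihood with Benjamini-Hochberg adjustment. The SE is the log2 fold change over the root of its F statistic, and 95% intervals use the t quantile of the test. Log2 CPM used a prior count of 2, and exon lengths and positions a GENCODE GRCm38 annotation. The test was also run on simulated counts in which only a small set of genes was changed. All other genes kept a common level over the groups, so this run does not check the broad shift between the states. Alternatives were other scalings and filters, a robust fit, DESeq2 1.42.0, a log2 fold change over 1 with a mean count over 10, the fit without the ribosomal RNA gene, the replicate block, and each library left out in turn. Named genes were all 10 Notch genes, the most significant gene per pathway list and direction in WT cells, any list gene called between KO and WT, and the 3 genes most like the top receptor, ligand and target. The genes and lists were chosen with earlier results of these data known.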

Additional observations from a re-analysis of the deposited data

How the results depend on the processing

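The numbers of the 10 Notch genes called on activation varied between 5 and 7 in WT and between 6 and 7 in KO cells over all alternatives, with every called direction kept. Between KO and WT in quiescent cells, and for the interaction, 0 were called in every alternative. In activated cells 1 was called between KO and WT without a filter on low counts (*Dll1*, adjusted p = 0.00922 in edgeR), and leaving out 1 library gave 0 to 2. Whether the shared replicate numbers pair the libraries is not settled. Deviations of same-numbered WT and KO libraries correlated at 0.24, 0.16, -0.27 and 0.59 in quiescent cells. KO replicates 1, 2 and 4 correlated best with the WT library of their own number, but of the WT libraries only replicate 4 did so. In activated cells the value was -0.07, which cannot decide it, since with 2 libraries per group the deviations mirror each other. With the replicate block, 7 genes were called on activation in WT and 7 in KO cells, and 0 in the other comparisons. *Jag1* then lost its KO call, at a log2 fold change of -0.68, and *Notch2* in KO (-0.67) and *Hes1* in WT cells (-0.87) gained one.

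Directions that turned were those of genes not called, when 1 library was left out. For KO against WT in quiescent cells the log2 fold changes ranged from -0.24 to 0.11 for *Dll1*, -0.016 to 0.18 for *Notch2*, -0.20 to 0.12 for *Hes6* and -0.30 to 0.014 for *Hes1*. In activated cells they ranged from -0.86 to 0.45 for *Notch2*, -1.55 to 0.43 for *Jag1*, -0.37 to 1.71 for *Hey1* and -0.027 to 0.43 for *Rbpj*. For the interaction they ranged from -0.18 to 0.27 for *Rbpj*, -1.80 to 0.15 for *Notch1*, -1.01 to 0.030 for *Notch3*, -1.09 to 0.88 for *Jag1* and -0.94 to 0.38 for *Notch2*. With a single library left in an activated group, it is assumed to vary like the other groups. The cause of these changes was not tested. Depth limits genes with few reads in activated libraries, such as *Hey1*, *Notch3*, *Dll1* and *Heyl*, with 6 to 69, 27 to 151, 22 to 199 and 35 to 106 counts.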
